A study of Mus musculus with 4 samples.

Results

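Desmosomes are spot-like junctions that weld the intermediate filament networks of neighbouring epithelial cells together. Outside the cell, desmosomal cadherins of both subfamilies, the desmogleins (Dsg) and the desmocollins (Dsc), bind partners on the next cell. Inside, the armadillo proteins plakoglobin (encoded by Jup) and the plakophilins (Pkp) gather on the cadherin tails, and desmoplakin (Dsp) ties that plaque to keratin filaments. Dsg2, Dsc2 and Pkp2 are the isoforms found in most epithelia, simple ones included, whereas Dsg3, Dsc3 and Pkp1 belong mainly to stratified epithelia such as epidermis. The mammary gland starts as a bud of embryonic skin, so its early epithelium sits beside epidermis and periderm, the flat transient outer layer of fetal skin.

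The data described here are the transcript levels of 10 desmosome genes, chosen by name: Dsg2, Dsg3, Dsc2, Dsc3, Jup, Pkp1, Pkp2, Pkp3, Dsp and Perp. Perp encodes a tetraspan membrane protein of stratified epithelia that is needed for desmosome assembly. The 10 genes were among 30406 listed for every library and were present in all of them under the same Ensembl identifiers. On the mouse genome build mm10 (GENCODE M21 coordinates), the 4 cadherin genes lie in 1 cluster on chromosome 18, in the order Dsc3 (from 19960930), Dsc2 (from 20030633), Dsg3 (from 20510274) and Dsg2 (to 20604521). The others are scattered: Pkp1 on chromosome 1 (135871395 to 135919207), Pkp3 on 7 (141078218 to 141090510), Perp on 10 (18845020 to 18857073), Jup on 11 (100368958 to 100397763), Dsp on 13 (38151294 to 38198577) and Pkp2 on 16 (16213318 to 16272712).

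The study profiled untreated mammary rudiments of WT C57B6 female mice (the B6/N substrain by the study's methods) by droplet single-cell RNA-seq on 3 embryonic days (E13.5, E14.5, E15.5) and on the day of birth (P0). Each stage is 1 library of pooled animals from its own dissection session, so a stage, its library and its session cannot be told apart. The E15.5 file header also names another Cell Ranger version than the others (3.1.0 against 6.0.0), and its gene list differs from theirs. Ratios of E15.5 to another stage cannot be told apart from that difference. Cells were sorted by the surface protein EpCAM into epithelial and stromal fractions after removal of blood and vessel cells (CD45, CD31, Ter119), so the share of each tissue in a library was set by the sort. Cells are not replicates, so stages and subsets of 1 stage were compared without a test, and every interval below is an exact 95% interval for counting error only. Epithelium and mesenchyme were both present in all 4 libraries, and that comparison was also tested over libraries.

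A cell was kept with at least 5000 unique molecular identifiers (UMIs, each 1 captured transcript) and at most 6% mitochondrial UMIs, which left 235, 76, 816 and 503 cells in the libraries from E13.5 to P0. A kept cell was epithelial where Epcam, Krt8, Krt18, Krt5 and Krt14 together exceeded Col1a1, Col1a2 and Col3a1, and mesenchymal where the reverse held, with 3 ties left out. The epithelial groups held 98, 45, 532 and 230 cells and the mesenchymal groups 135, 31, 283 and 273. Median depth per cell was 9973 UMIs in P0 epithelium against 18967.5 to 26725 in the earlier epithelia. Of the markers that did not assign the cells, the mesenchymal list (Pdgfra, Dcn, Lum, Vim, Twist1, Twist2) summed to 153 to 276 CPM (UMIs counted per 1000000 UMIs of the group) in the 4 epithelial groups and to 2819 to 8961 CPM in the mesenchymal groups, and the endothelial, immune and melanocyte lists stayed at or under 5.5 CPM in each epithelial group. The epithelium was not limited to mammary cells, since skin cells, which the study's authors set aside, were not removed here. At every stage the study's figures count fewer mammary epithelial cells than these groups hold. Of the 98 E13.5 epithelial cells 55 carried 3 or more UMIs of mammary bud markers (Tbx3, Ndnf, Sostdc1, Pthlh, Wnt10b, Msx1). That is also more cells than the study counted as mammary epithelium at this stage. At E15.5, 80 of 532 carried 3 or more UMIs of the suprabasal skin keratins Krt1 and Krt10. The bud markers are not particular to mammary epithelium, as 59 of 135 E13.5 mesenchymal cells passed the same cut. At E15.5 these markers summed to 239 CPM in mesenchyme and 212 CPM in epithelium. Only 20 of 230 P0 epithelial cells passed, so a cell without them cannot be called non-mammary. Libraries shared 2 cell barcodes, none of them among the kept cells.

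In the first comparison, epithelial cells were set against mesenchymal cells of the same library. From E13.5 to P0 the summed level of the 10 genes in epithelium was 2003, 1346, 2211 and 1069 CPM. In mesenchyme the sums were 56.5, 4.77, 98.5 and 52.2 CPM. The epithelial sum was thus 35.5-fold (29.9 to 42.4), 282-fold (110 to 1036), 22.5-fold (20.8 to 24.2) and 20.5-fold (17.2 to 24.6) the mesenchymal one. The wide E14.5 interval rests on 4 member UMIs in 31 mesenchymal cells.

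A gene was called higher or lower where its level differed at least 2-fold between groups and averaged at least 10 CPM over them. By that rule 8 of 8 measurable members were higher in epithelium at E13.5, where 9.33% of all tested genes were. At E14.5 the count was 7 of 7 against 13.505% of all tested genes, at E15.5 9 of 9 against 13.8%, and at P0 8 of 8 against 23.1%. None was called lower. The members left out at a stage for low levels were Dsc3 and Pkp2 at E13.5, Dsc2, Pkp1 and Pkp2 at E14.5, Pkp2 at E15.5, and Dsg3 and Dsc3 at P0. Of these, Dsc3 at E13.5 was alone in not standing apart from mesenchyme, with 9 UMIs in 98 epithelial cells and 16 in 135 mesenchymal cells, 10 of them in a single cell (ratio 0.664, 0.258 to 1.59, and 1.76, 0.559 to 6.0, without that cell).

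The tissue difference was tested on UMIs summed by library and tissue, with the library as a block (edgeR quasi-likelihood test, Benjamini-Hochberg adjusted over 8576 genes). The 4 libraries are 4 stages, so the test asks for a difference that they share. SE here is the size of the log2 fold change divided by the square root of the test's F value. It is not a fitted standard error. Of 10 members 9 were higher in epithelium, where 9.56% of all tested genes were, and 0 lower, where 12.4% were. Perp (log2 fold change 5.58, SE 0.645, adjusted p = 0.00353), Dsg3 (5.48, SE 0.747, 0.00634), Pkp3 (5.41, SE 0.458, 0.00135), Dsg2 (5.32, SE 0.437, 0.00128) and Dsp (5.29, SE 0.508, 0.00201) had the largest differences. Jup (4.27, adjusted p = 0.00371), Pkp1 (4.20, 0.00353), Pkp2 (3.29, 0.0168) and Dsc2 (3.29, 0.0216) followed, and each of these 9 was higher in 4 of 4 libraries. Dsc3 was higher in 3 of 4 and did not pass (3.09, SE 1.15, adjusted p = 0.113). Without E14.5 or without E15.5, Dsc2 (adjusted p = 0.0709 and 0.0617) and Pkp2 (0.0555 and 0.0565) no longer passed, and without E13.5 Dsc3 did (0.0149), all by edgeR. Over all alternatives of this test, DESeq2 included, adjusted p ranged from 4.09e-05 to 0.0709 for Dsc2, from 3.62e-05 to 0.0565 for Pkp2 and from 0.00478 to 0.289 for Dsc3.

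Mesenchymal UMIs of the members were concentrated at E15.5, where 1 cell held 332 of 715. That cell carried 596 UMIs of the epithelial assignment genes beside 691 of the collagens and was called a doublet (2 cells in 1 droplet). Where the 2 assignment sums had to lie 4-fold apart, the E15.5 ratio of the summed members rose from 22.5 to 55.2 (49.1 to 62.2), and the P0 ratio moved from 20.5 to 29.2 (23.7 to 36.4). The E15.5 cell called a doublet held 96 of 160 Dsp, 103 of 197 Perp and 9 of 11 Dsg3 UMIs of the mesenchyme. Without that cell the mesenchymal levels were 8.90, 13.1 and 0.278 CPM, and the ratios 56.4, 52.5 and 116. It also held 18 of 33 Dsc3 and 11 of 17 Pkp1 UMIs. The levels by gene below include this cell. Free RNA in droplets was not measured separately, so the mesenchymal levels serve as the background for low epithelial values.

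**Figure D1:**
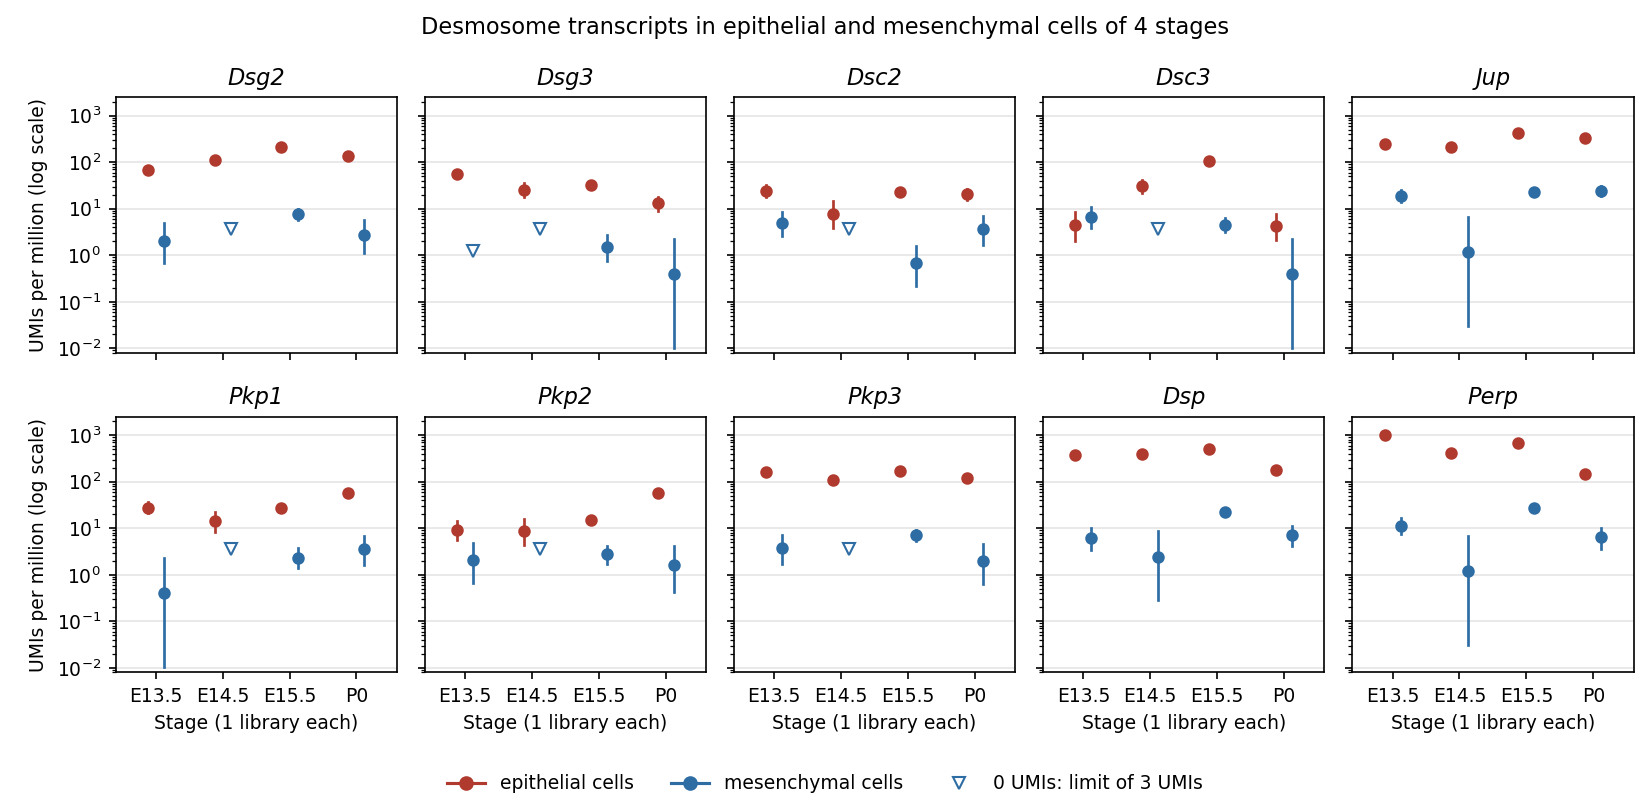
Level of each desmosome gene in CPM (log axis) in epithelial (red) and mesenchymal (blue) cells of the 4 libraries, with exact 95% counting intervals. Open triangles mark groups with 0 UMIs, drawn at the limit of 3 UMIs; the epithelial point lies above the mesenchymal one in every panel and stage except Dsc3 at E13.5.

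The desmogleins had their highest epithelial levels in different libraries. From E13.5 to P0, Dsg2 stood at 69.1, 113, 215 and 137 CPM in epithelium, and in mesenchyme at 2.08, 0, 7.71 and 2.79 CPM. Dsg3 stood at 56.3, 25.9, 32.3 and 13.005 CPM in the same epithelial groups, with 0, 0, 1.52 and 0.399 CPM in mesenchyme. Dsg2 was therefore highest at E15.5 and Dsg3 at E13.5. The E13.5 level of Dsg3 was uneven within the epithelium. It was 12.9 CPM in cells with 3 or more bud-marker UMIs, under the E14.5 and E15.5 levels, and 123 CPM in the others. The ratio of epithelium to mesenchyme for Dsg2 was 33.3 (13.9 to 104) in the first library, 27.9 (21.4 to 37.0) in the E15.5 library and 49.1 (23.6 to 123) in the P0 library. At E14.5, with 0 mesenchymal UMIs, the exact lower limit was 25.4, and the ratio with the 0 set to 3 UMIs was 31.6. Without the E15.5 mesenchymal cell called a doublet, which held 22 of the 56 Dsg2 UMIs, the E15.5 ratio was 45.5 (32.5 to 65.8).

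The desmocollins are the binding partners of the desmogleins in the junction. Dsc2 measured 24.0, 7.85, 23.4 and 20.7 CPM in epithelium from E13.5 to P0, against 4.98, 0, 0.689 and 3.59 CPM in mesenchyme. Dsc3 measured 4.41, 30.6, 109 and 4.21 CPM in the same order, against 6.64, 0, 4.55 and 0.399 CPM in mesenchyme. Dsc3 was thus far above its mesenchymal level at E14.5 and E15.5, and its other epithelial levels lay under 5 CPM. In cells thinned to 5000 UMIs each, a Dsc3 UMI was found in 3.06%, 13.3%, 29.5% and 1.74% of epithelial cells of the 4 stages and in 2.22%, 0%, 0.707% and 0.366% of mesenchymal cells. Without thinning the epithelial shares were 9.18%, 28.9%, 63.7% and 3.91%, with the same order of the stages.

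Of the armadillo members, Jup and Pkp3 had the highest epithelial levels at every stage. Plakoglobin transcripts measured 252, 217, 432 and 332 CPM in epithelium and 19.1, 1.19, 22.7 and 24.3 CPM in mesenchyme, the largest mesenchymal level of the 10 genes at E13.5 and P0. Pkp3, the plakophilin that binds the widest range of desmosomal proteins, measured 164, 110, 169 and 122 CPM against 3.74, 0, 7.02 and 1.99 CPM. Pkp1 and Pkp2 were lower before birth than at birth. Pkp1 measured 27.9, 14.1, 27.6 and 58.5 CPM in epithelium and Pkp2 9.31, 8.64, 15.3 and 58.1 CPM, with mesenchymal levels up to 3.59 and 2.75 CPM. The Pkp2 ratio of epithelium to mesenchyme was 4.48 (1.62 to 15.4) at E13.5, 5.54 (3.50 to 9.24) at E15.5 and 36.4 (13.9 to 135) at P0. At E14.5 it was 2.41 with the mesenchymal 0 set to 3 UMIs (lower limit 1.65), and 1.57 (lower limit 0.970) without the cell that held 4 of the 11 UMIs. Leaving out the mesenchymal cell with most Pkp2 UMIs gave 7.41 (2.18 to 39.1) at E13.5 and 72.6 (19.8 to 605) at P0.

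Desmoplakin transcripts measured 384, 395, 502 and 176 CPM in epithelium, and 6.23, 2.39, 22.0 and 7.18 CPM in mesenchyme. Perp measured 1012, 424, 686 and 148 CPM in epithelium, and 11.2, 1.19, 27.1 and 6.38 CPM in mesenchyme. Both were lowest in the P0 epithelium. Dsp UMIs occurred in 99.0%, 95.6%, 97.2% and 65.7% of epithelial cells, and after thinning to equal depth in 76.5%, 68.9%, 81.6% and 47.4%. Perp UMIs after thinning occurred in 95.9% of E13.5 and 46.5% of P0 epithelial cells. Median depth in P0 mesenchyme was 8743 UMIs, and thinned shares there were 3.30% for Dsp and 2.93% for Perp.

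Within a gene family, the share of UMIs that an isoform takes is not set by the depth of the library. Desmoglein, desmocollin and plakophilin UMIs here and below are those of the members only: Dsg2 and Dsg3, Dsc2 and Dsc3, and Pkp1, Pkp2 and Pkp3. The further genes Dsg1a, Dsg1b, Dsg1c, Dsg4, Dsc1 and Pkp4 were not counted in the shares. Each UMI is a captured 3′ end, so counts are not scaled by transcript length. From E13.5 to P0 Dsg2 took 55.1% (48.8 to 61.3), 81.4% (74.8 to 86.8), 87.0% (85.8 to 88.1) and 91.3% (88.1 to 93.9) of the Dsg2 and Dsg3 UMIs, with Dsg3 as the rest. The E13.5 interval lay below all the others, and those of E14.5 and E15.5 overlapped. Within E13.5, Dsg2 took 78.7% (67.7 to 87.3) in the bud-marker cells and 45.3% (37.9 to 52.9) in the others. The former interval overlapped those of E14.5 and E15.5. Dsc2 took 84.5% (72.6 to 92.7), 20.4% (10.2 to 34.3), 17.8% (16.1 to 19.6) and 83.1% (71.7 to 91.2) of desmocollin UMIs in the same order. Desmocollin UMIs at E13.5 and P0 were therefore mostly Dsc2, and those of the middle stages mostly Dsc3. Their totals at E13.5, E14.5 and P0 were 58, 49 and 65 UMIs, against 1887 at E15.5. The E13.5 majority of Dsc2 lay in cells with fewer than 3 bud-marker UMIs (46 of 49 UMIs), against 3 of 9 UMIs in the bud-marker cells.

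Of the UMIs of Pkp1, Pkp2 and Pkp3, most were Pkp3 before birth. Its share was 81.5% (77.4 to 85.1), 82.8% (76.3 to 88.2), 79.8% (78.3 to 81.2) and 51.1% (47.1 to 55.1) from E13.5 to P0. At P0 the remainder was even, with Pkp1 at 24.5% (21.2 to 28.1) and Pkp2 at 24.4% (21.0 to 27.9). Pkp2 had taken 4.63% (2.81 to 7.14), 6.51% (3.29 to 11.3) and 7.19% (6.30 to 8.17) at the embryonic stages. Pkp4, which these shares leave out, stood at 86.7, 99.0, 156 and 99.8 CPM in epithelium from E13.5 to P0.

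**Figure D2:**
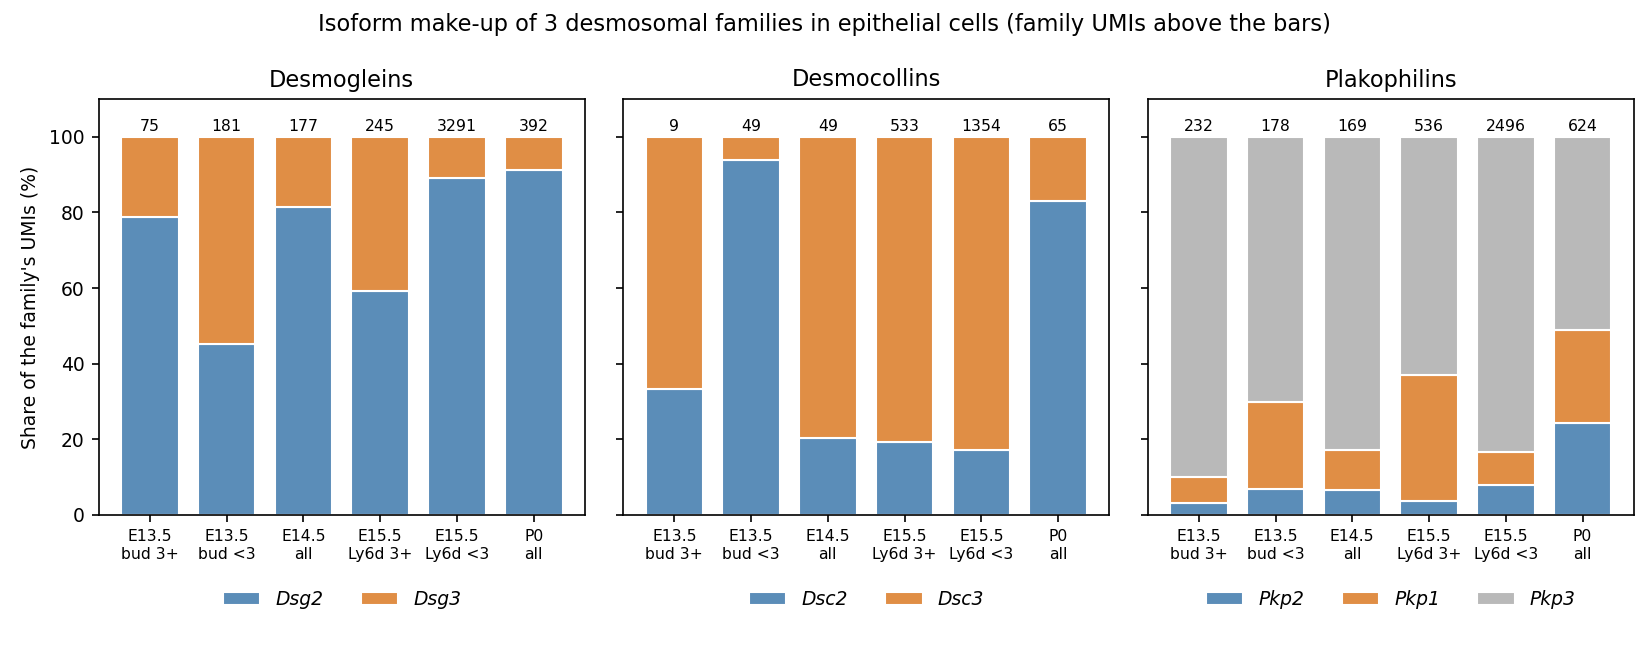
Share (%) of each family's UMIs taken by its isoforms in groups of epithelial cells, with the family's UMI total above each bar. Each family is counted over the members drawn only. The E13.5 cells are split at 3 UMIs of bud markers and the E15.5 cells at 3 Ly6d UMIs; Dsc3 (orange) takes most desmocollin UMIs in both E15.5 groups and at E14.5, and Dsc2 (blue) in the P0 cells and the E13.5 cells with few bud-marker UMIs.

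Neighbouring stages were compared next, with the caution that each ratio shares a library with the next and that the epithelium differed in makeup. From E13.5 to E14.5, Dsc3 was higher 6.95-fold (3.31 to 16.3), and Dsg3 (0.460, 0.303 to 0.683), Dsc2 (0.327, 0.148 to 0.654) and Perp (0.419, 0.381 to 0.461) were lower. That made 1 member higher of 9 tested, where 11% of all genes were, and 3 lower, where 3.75% were. The median log2 ratio was -0.57 over the members and 0.19 over all tested genes. Bud-marker cells were 55 of 98 epithelial cells at E13.5 and 42 of 45 at E14.5. With the E13.5 group limited to its bud-marker cells, 3 members were higher at E14.5 and 0 lower, and the log2 ratios of Dsg3 and Dsc2 turned from -1.12 and -1.61 to 1.00 and 1.70. The share of all genes for this recount is not given. Dsc2 was not among the 3, since its value rested on 10 UMIs (7.85 CPM) against 3 (2.42 CPM). The Dsg3 value rested on 16 UMIs in the bud-marker cells, 10 of them in 1 cell. The periderm list (Krt6a, Krt17, Krt4, Gabrp, Hopx, Sfn) summed to 2455 CPM at E13.5 and 1477 CPM at E14.5. This sum is not particular to periderm. P0 epithelial cells with 3 or more Acta2 UMIs held 2421 CPM of it, with Krt6a, Krt4, Gabrp and Hopx at 0 UMIs.

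From E14.5 to E15.5 the members were higher on the whole. Dsc2 (2.98-fold, 1.60 to 6.28) and Dsc3 (3.54-fold, 2.58 to 5.0) passed 2-fold of 10 tested, where 5.84% of all genes did, and 0 were lower, where 13.8% were. Jup (1.99, 1.76 to 2.25), Pkp1 (1.95, 1.22 to 3.32) and Dsg2 (1.90, 1.61 to 2.26) lay just under the threshold, and the members' median log2 ratio was 0.87 against -0.23 over all genes. Dsg3 (1.24, 0.874 to 1.83) and Pkp2 (1.77, 0.967 to 3.59) had intervals that included 1. Of the E14.5 UMIs 1 cell held 8 of 18 for Pkp1, and 4 of 11 lay in 1 cell for Pkp2. Without the top cell of each gene the ratios were 3.33 (1.79 to 6.99) for Pkp1 and 2.71 (1.29 to 6.83) for Pkp2. The ratio of Pkp1 at E14.5 to that at E13.5 then went from 0.506 to 0.297 (0.135 to 0.586). The 8-gene suprabasal skin list (Krt1, Krt10, Krtdap, Sbsn, Lor, Dmkn, Krt77, Calm4) summed to 509 CPM in the E14.5 and 1931 CPM in the E15.5 epithelium, and its part in these ratios was not tested.

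From E15.5 to P0 the 10 genes separated, while the suprabasal list stood at 1931 and then 335 CPM and the periderm list at 3218 and then 1566 CPM. Pkp2, the plakophilin of simple epithelia and heart, was higher 3.81-fold (3.08 to 4.71) and Pkp1 2.12-fold (1.75 to 2.57). Dsc3 was lower at a ratio of 0.0388 (0.0193 to 0.0695), as were Perp (0.215, 0.194 to 0.238), Dsp (0.351, 0.319 to 0.386) and Dsg3 (0.403, 0.276 to 0.572). Of 10 tested members 2 were higher, where 12.9% of all genes were, and 4 lower, where 13.6% were. Dsc2 did not stand apart (0.881, 0.648 to 1.18), and Jup (0.769), Pkp3 (0.721) and Dsg2 (0.637) were lower by less than 2-fold. The pair Pkp1 and Pkp2 thus differed in direction from the 8 other members, none of which had a ratio above 1. Limiting the E15.5 group to the 416 cells with more Krt8 and Krt18 than Krt1, Krt10 and Krt15 UMIs left log2 ratios of 1.73 for Pkp2, 1.53 for Pkp1, -4.63 for Dsc3 and -1.93 for Perp.

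At E13.5 the epithelial cells were divided by bud markers, 55 cells with 3 or more UMIs against 43 with fewer. The latter carried 3855 CPM of the 6 periderm markers against 1547 CPM in the bud-marker cells, in which Krt4 had 0 UMIs. Krt17 alone stood at 1522 CPM in the latter and 117 CPM in the bud-marker cells. Their summed desmosome level was 2734 CPM against 1529 CPM in the bud-marker cells, a ratio of bud-marker to other cells of 0.559 (0.526 to 0.595). Of 9 members tested 6 were lower in the bud-marker cells, where 9.29% of all genes were, and 0 were higher, where 8.47% were. Median depth was 21704 and 18024 UMIs, and the mesenchymal list summed to 271 and 184 CPM.

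Dsc2 differed most, with 3 UMIs in the bud-marker cells and 46 in the others (2.42 against 57.3 CPM, ratio 0.0423, 0.00841 to 0.132). Dsg3 followed at 12.9 against 123 CPM (0.105, 0.0577 to 0.179), with a UMI in 10.9% of bud-marker cells and 72.1% of the others. Of the 16 Dsg3 UMIs in bud-marker cells 10 lay in 1 cell, without which the level was 4.91 CPM and the ratio 0.0398 (0.0143 to 0.0898). Without the bud-marker cell that held 2 of the 3 Dsc2 UMIs, the Dsc2 ratio was 0.0143 (0.000354 to 0.0836). Pkp1 stood at 12.9 against 51.1 CPM (0.253, 0.133 to 0.461), Dsg2 at 47.6 against 102.1 CPM (0.467, 0.328 to 0.660) and Perp at 710 against 1478 CPM (0.480, 0.440 to 0.524). Pkp2 passed the fold rule with an interval that included 1 (0.378, 0.126 to 1.04). The bud-marker cells were not devoid of the plaque genes: Jup (233 against 281 CPM), Pkp3 (169 against 156 CPM) and Dsp (331 against 467 CPM) differed by less than 2-fold, and Pkp3 not beyond its counting interval (1.08, 0.864 to 1.36). Isoform makeup differed too. Dsg3 took 54.7% (47.1 to 62.1) of desmoglein UMIs in cells with few bud-marker UMIs and 21.3% (12.7 to 32.3) in the bud-marker cells, or 9.68% (3.63 to 19.9) without that 1 cell. Of the desmocollin UMIs, Dsc2 made up 46 of 49 in the former and 3 of 9 in the latter.

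**Figure D3:**
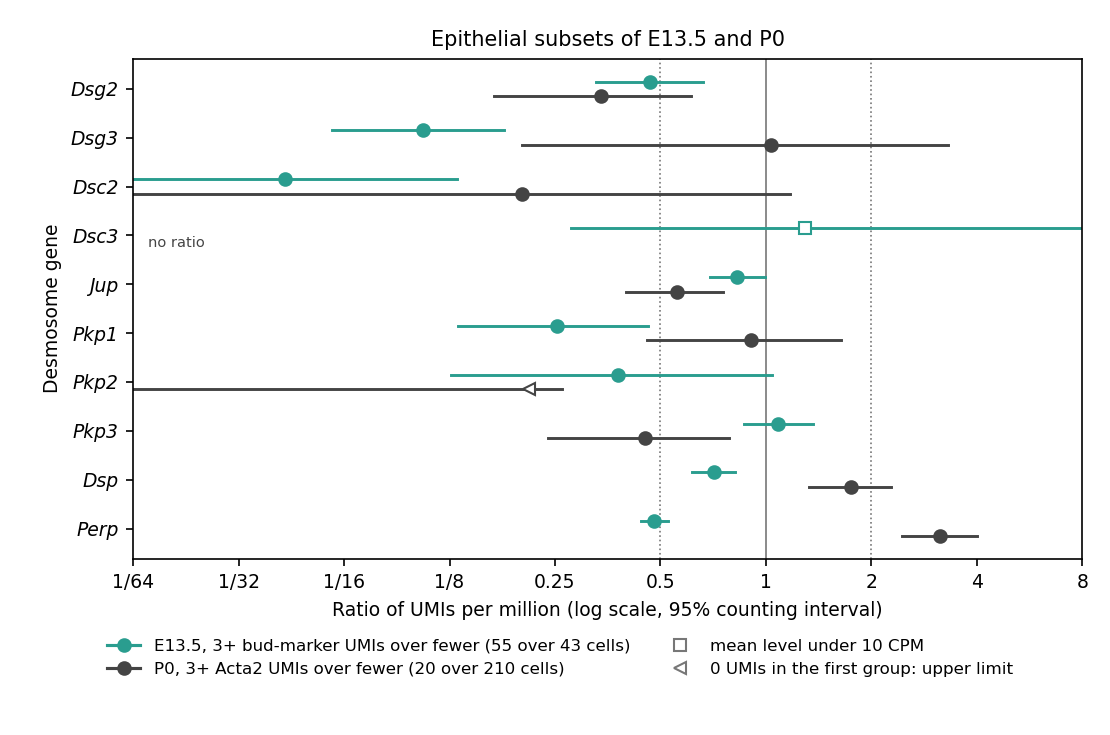
Ratio of CPM (log axis) between subsets of epithelial cells, with exact 95% counting intervals and dotted lines at 2-fold. At E13.5 (green) Dsc2 and Dsg3 lie farthest below 1 in the bud-marker cells. At P0 (grey) Perp lies above 2 and Dsc2, Pkp2, Dsg2 and Pkp3 below 0.5 in the Acta2 cells. Of these, Dsc2 has an interval that includes 1, and Pkp2 is drawn with its 0 UMIs set to 3. Dsc3 has no ratio there because the Acta2 cells hold 0 UMIs and the level elsewhere is under their limit of 3 UMIs. Intervals that reach the edge of the plot go on beyond it.

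At E15.5 the epithelial cells were divided by Ly6d, which encodes a surface protein found on luminal mammary cells and on differentiating keratinocytes. Of 532 cells, 47 had 3 or more Ly6d UMIs and 485 had fewer, with 8 cells at 3 or 4 UMIs and 51 at 1 or 2. The summed desmosome level was 4183 CPM in the Ly6d cells and 1975 CPM in the rest (2.12-fold, 2.06 to 2.18). Of 10 tested members 6 were higher, where 4.71% of all genes were, and 1 was lower, where 9.93% were. The members' median log2 ratio was 1.24 and that of all tested genes -0.20. The depth was 32772 UMIs per Ly6d cell and 24309 per other cell, in the median.

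All 3 stratified isoforms were among those 6. Pkp1 was higher 6.96-fold (5.68 to 8.53), at 117 against 16.8 CPM, and its UMIs occurred in 91.5% of Ly6d cells against 19.4% of the rest (36.2% and 5.57% after thinning). Dsc3 stood at 282 against 87.9 CPM (3.21-fold, 2.86 to 3.59) and Dsg3 at 65.5 against 28.3 CPM (2.32-fold, 1.84 to 2.90). Dsc2, of the widely expressed set, was also higher, at 67.5 against 18.2 CPM (3.71-fold, 2.91 to 4.70). The desmocollin makeup was similar in both groups, with Dsc3 at 80.7% (77.1 to 83.9) and 82.9% (80.8 to 84.8) of the Dsc2 and Dsc3 UMIs. Of the Dsg2 and Dsg3 UMIs, Dsg3 took 40.8% (34.6 to 47.3) in Ly6d cells and 10.97% (9.92 to 12.1) in the rest. Dsg1a and Dsg1b, which that share leaves out, held 122 and 33 UMIs in Ly6d cells and 65 and 8 in the rest.

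Dsg2 went the other way, at 94.98 CPM in Ly6d cells and 229 CPM in the rest (0.414, 0.348 to 0.489). Perp (1604 against 576 CPM, 2.78-fold, 2.66 to 2.91) and Dsp (1056 against 436 CPM, 2.42-fold, 2.29 to 2.56) were higher. Jup (662 against 404 CPM, 1.64-fold) and Pkp3 (221 against 163 CPM, 1.36-fold) were higher by less than 2-fold, and Pkp2 did not stand apart (12.4 against 15.6 CPM, 0.799, 0.471 to 1.28). The plaque and cadherin genes thus did not share 1 ratio between these cells.

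The 8-gene suprabasal list moved with this split. It was detected in full in both groups and summed to 8722 CPM in the Ly6d cells and 1119 CPM in the rest. Krt1 (837 and 27.0 CPM) and Krt10 (1205 and 72.8 CPM) were parts of these sums. The study places Dsc3 and Krtdap, the latter from this list, in its luminal-like mammary cells at E15.5. The sum therefore cannot be read as skin content alone. Bud markers summed to 47.2 and 232 CPM in the same groups. Periderm markers summed to 5201 and 2981 CPM, and the mesenchymal list to 82.5 and 166 CPM with Dcn at 0 in the Ly6d cells. Among cells with fewer than 3 UMIs of Krt1 and Krt10, which left 18 Ly6d cells and 434 others, the log2 ratios were 2.39 for Dsc2, 2.68 for Pkp1, 1.90 for Dsc3, 1.19 for Dsg3 and 1.05 for Dsp. Perp (0.94) and Dsg2 (-0.67) then no longer passed 2-fold. The counts of this comparison changed most among the 25 Ly6d cells and 391 others with more Krt8 and Krt18 than Krt1, Krt10 and Krt15 UMIs, where 3 members were higher and 0 lower, and log2 ratios were 3.07 for Pkp1, 1.80 for Dsc2 and 1.64 for Dsc3. The shares of all genes among these cells are not given, so the counts cannot be set against them.

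**Figure D4:**
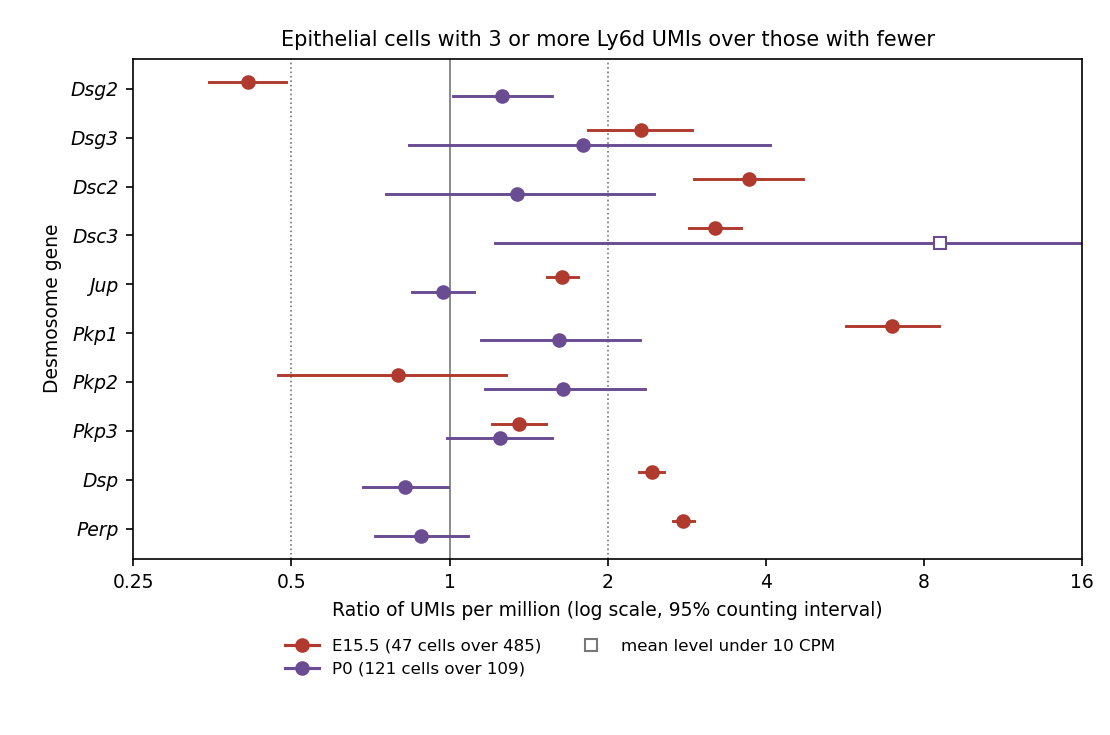
Ratio of CPM (log axis) between epithelial cells with 3 or more and with fewer Ly6d UMIs at E15.5 (red) and P0 (purple), with exact 95% counting intervals. Pkp1 at 6.96 is farthest to the right at E15.5 and Dsg2 at 0.414 alone passes the lower 2-fold line; of the P0 ratios only Dsc3, which averages under 10 CPM, lies beyond 2. Its interval goes on beyond the plot.

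The same Ly6d split was made at P0, where Ly6d cells were 121 of 230. No member passed 2-fold among 9 tested, where 4.73% of all genes were higher and 3.13% lower. Pkp2 (71.0 against 43.1 CPM, 1.65-fold, 1.17 to 2.35), Pkp1 (71.0 against 43.9 CPM, 1.62-fold, 1.15 to 2.30) and Dsg2 (151 against 120 CPM, 1.26-fold, 1.01 to 1.56) had intervals above 1, and Dsp (160 against 195 CPM, 0.824, 0.683 to 0.993) below it. Without the Ly6d cell with most Dsg2 UMIs, the Dsg2 interval included 1 (0.988 to 1.53). The Dsp interval did so too (0.702 to 1.02) without the cell of the rest with most Dsp UMIs. Of the 109 cells with little Ly6d, 23 carried 3 or more UMIs of the P0 basal list (Acta2, Myh11, Mylk, Oxtr, Cnn1), against 3 of the 121.

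Acta2, smooth muscle actin of basal (myoepithelial) cells, marked 20 P0 epithelial cells with 3 or more UMIs. Their summed desmosome level differed from that of the 210 others by less than counting error, at 1052 and 1071 CPM (0.983, 0.856 to 1.12). The makeup differed: Perp was higher (392 against 125 CPM, 3.15-fold, 2.45 to 4.0), and Dsg2 (49.0 against 145 CPM, 0.338, 0.167 to 0.612) and Pkp3 (57.9 against 128 CPM, 0.453, 0.238 to 0.786) were lower. Pkp2 had 0 UMIs in the Acta2 cells and 152 in the others, a ratio of 0.210 with the 0 set to 3 UMIs and an exact upper limit of 0.262. Dsc2 passed the rule on 1 UMI against 53 with an interval that included 1 (0.201, 0.0050 to 1.17). In all 1 of 9 tested members was higher, where 10.5% of all genes were, and 4 lower, where 17.4% were. Dsp was higher by less than 2-fold (290 against 166 CPM, 1.75-fold, 1.32 to 2.28), Jup lower (192 against 345 CPM, 0.556, 0.399 to 0.756), and Pkp1 did not stand apart (53.5 against 59.0 CPM, 0.907, 0.458 to 1.63). The P0 luminal list (Aldh1a3, Kit, Elf5, Prlr, Cited1, Esr1) summed to 250 CPM in the Acta2 cells, with Elf5 and Esr1 at 0, and to 982 CPM in the others, and the mesenchymal list to 348 and 135 CPM.

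**Figure D5:**
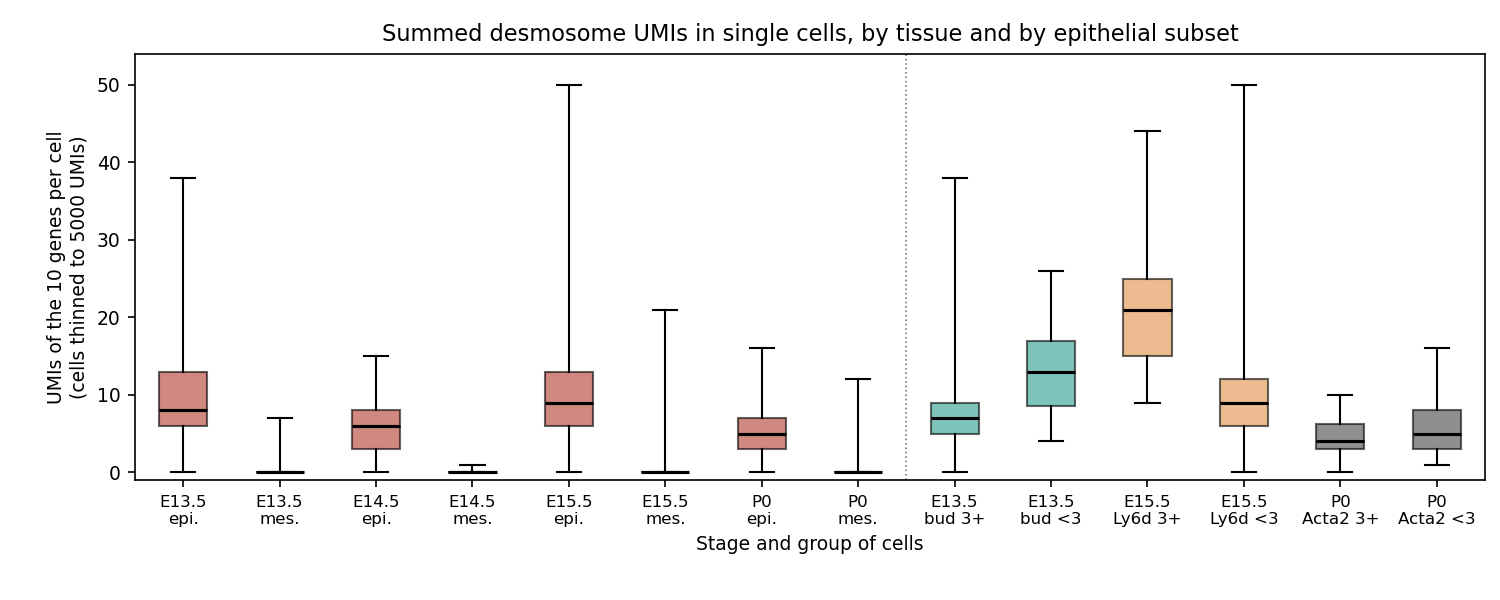
UMIs of the 10 desmosome genes per cell after thinning each cell to 5000 UMIs: boxes span the quartiles, black lines are medians and whiskers reach the lowest and highest cell. Epithelial medians of 5 to 9 stand beside mesenchymal medians of 0, and the E15.5 Ly6d cells have the highest median, 21.

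Single cells were compared after thinning each to 5000 UMIs. The median epithelial cell held 8, 6, 9 and 5 member UMIs from E13.5 to P0, of 4, 3, 4 and 3 different members, and the median mesenchymal cell 0 at every stage. Within the E13.5 epithelium, bud-marker cells had a median of 7 UMIs and the others 13. Ly6d cells at E15.5 had a median of 21 UMIs from 6 members (lowest cell 9, highest 44), against 9 UMIs from 4 members in the rest (0 to 50). The ranges overlapped, although the quartiles did not (15 to 25 and 6 to 12). At P0 the Acta2 cells had a median of 4 and the others 5.

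Desmosome genes that are no members were taken as a list of 10: the further desmogleins Dsg1a, Dsg1b, Dsg1c and Dsg4, the desmocollin Dsc1, Pkp4, the plaque linkers Evpl (envoplakin) and Ppl (periplakin), Cdsn (corneodesmosin) and Pof1b. From 2 to 6 of them averaged 10 CPM in a comparison. For this list and those below, the shares of all tested genes that passed are those given above for the members. Few genes of a list were tested, so a count of 1 or 2 genes is not by itself a trait of the list. Where tested they were higher in epithelium than in mesenchyme at every stage, 4 of 4, 2 of 2, 2 of 2 and 3 of 3 from E13.5 to P0. In E15.5 Ly6d cells 4 of 6 were higher and 0 lower, led by Dsg1b (21.6 against 0.627 CPM, 34.5-fold, 15.6 to 86.5), Pof1b (45.9 against 2.82 CPM, 16.3-fold) and Dsg1a (79.9 against 5.09 CPM, 15.7-fold). Dsg1a and Dsg1b are close paralogues between which counting can split reads, so the division of UMIs between them is uncertain. In E13.5 bud-marker cells 3 of 4 were lower, led by Pof1b (0.807 against 52.3 CPM), Evpl (4.04 against 43.6 CPM) and Ppl (19.4 against 187 CPM), and none was higher. In P0 Acta2 cells Ppl was lower at 13.4 against 126 CPM, and Pof1b had 1 UMI against 61, so that 2 of 3 were lower and 0 higher. The Pof1b interval included 1 (0.175, 0.00435 to 1.01). Between neighbouring epithelial stages, 2 of 4 were lower at E14.5 than at E13.5 (Pof1b with 3 UMIs against 43 and Evpl with 7 against 40), 0 of 2 passed 2-fold from E14.5 to E15.5, and 1 of 3 was higher at P0 than at E15.5 (Pof1b, 23.7 against 7.42 CPM). None of 3 passed 2-fold in the P0 Ly6d split.

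The filament partners of desmosomes, 11 keratins, were counted in the same comparisons. In the E15.5 Ly6d cells 7 of 11 were higher and 0 lower (median log2 ratio 1.76), with Krt1 at 837 against 27.0 CPM (31.0-fold, 27.5 to 35.0) and Krt7 at 29.5 against 1.17 CPM (25.1-fold, 13.7 to 48.5). In E13.5 bud-marker cells 5 of 11 were lower and 0 higher, Krt19 at 9.69 against 183 CPM among them. From E15.5 to P0, 5 were higher and 5 lower: Krt7 stood at 4.20 CPM at E15.5 and 466 CPM at P0, and Krt1 (113 and 1.53 CPM) and Krt5 (775 and 17.6 CPM) were lower. From E13.5 to E14.5, 2 of 10 were higher and 4 lower, with Krt7 at 142 UMIs at E13.5 and 0 at E14.5, Krt1 at 10.8 and 79.3 CPM and Krt19 at 77.9 and 16.5 CPM. From E14.5 to E15.5, 5 of 10 were higher and 0 lower, led by Krt6a (1.57 to 30.6 CPM) and Krt8 (170 to 928 CPM). In P0 Acta2 cells 2 of 9 were higher and 5 lower, with Krt5 at 169 against 3.35 CPM, Krt7 at 13.4 against 508 CPM and Krt19 at 57.9 against 702 CPM. In the P0 Ly6d split 3 of 9 were higher and 1 lower, Krt15 (17.0 against 4.97 CPM) and Krt5 (5.68 against 31.5 CPM) among them. Between the tissues 8 of 9, 8 of 8, 10 of 10 and 7 of 7 were higher in epithelium from E13.5 to P0, a count that includes the keratins used to assign the cells. Krt17, which did not assign them, was 323-fold (138 to 995) higher at E13.5.

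Adherens junctions, the sister junctions that anchor actin, were counted in the same way. Of 5 genes (Cdh1, Cdh3, Ctnna1, Ctnnb1, Ctnnd1) 0 were higher and 1 lower in E15.5 Ly6d cells (median log2 ratio -0.03), and 1 higher and 0 lower in E13.5 bud-marker cells. From E13.5 to P0, 2, 5, 4 and 5 of the 5 were higher in epithelium than in mesenchyme. Between neighbouring stages 1 was higher at E14.5 (Ctnnd1, 250 against 79.3 CPM), 1 higher at E15.5 (Cdh1) and 1 lower at P0 (Cdh3, 21.4 against 53.0 CPM). Cdh1 (E-cadherin) stood at 147, 175, 430 and 539 CPM in epithelium from E13.5 to P0. Cdh3 (P-cadherin) was higher in P0 Acta2 cells at 103 against 13.8 CPM (7.43-fold, 4.16 to 13.03), where 1 of 5 was higher and 1 lower. At P0 Ly6d cells held 5.68 CPM of Cdh3 against 39.8 CPM in the rest (0.143, 0.0583 to 0.304), and was the 1 of 5 lower there, with 0 higher.

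Of 6 transcription factors of stratified epithelium (Trp63, Grhl1, Grhl2, Grhl3, Ovol1, Klf4), 5 of 6 were higher in epithelium than in mesenchyme at each embryonic stage, and 1 of 2 at P0, where Klf4 was lower (180 against 907 CPM). Ovol1 stood at 309 against 1.66 CPM at E13.5 and 184 against 1.19 CPM at E14.5. From E15.5 to P0, 4 of 6 were lower and 0 higher (median log2 ratio -2.56), Grhl3 by the most (177 and 1.15 CPM). Trp63, the master regulator of stratified epithelia, stood at 139, 247, 79.3 and 3.82 CPM. In E15.5 Ly6d cells 2 of 6 were higher and 0 lower, and Trp63 was at 91.1 against 77.9 CPM. In E13.5 bud-marker cells 1 was higher and 2 lower, Trp63 being the higher one at 196 against 51.1 CPM. From E13.5 to E14.5 none of 6 passed 2-fold, and from E14.5 to E15.5 1 was higher (Grhl1) and 1 lower (Trp63). In P0 Acta2 cells 1 of 4 was higher (Trp63, on 4 UMIs against 6), and in P0 Ly6d cells 1 of 4 was higher (Grhl1) and 1 lower (Ovol1).

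Finally, the genes with a pattern most like that of the desmosome genes were sought over 11 groups of cells (mesenchyme of the 4 stages and the epithelial subsets), among 8397 genes that averaged 10 CPM. Groups of 1 library share its depth and handling, and epithelial groups all stood above mesenchymal ones, so these correlations of log2(CPM + 10) are descriptions. For the sum of all members the closest were Sfn (Pearson r = 0.981), which encodes 14-3-3 sigma of stratifying epithelia, Erbb3 (0.973), Dstn (0.970), Kif21a (0.968) and Mpzl2 (0.966). For Dsg2, Dsc2 and Pkp2 they were the tight junction genes Ocln (0.979) and Cldn4 (0.967) with Pdcd6 (0.977), Klc3 (0.960) and Cdh1 (0.960). For Dsg3, Dsc3 and Pkp1 they were Polr1d (0.963), Mpzl2 (0.962), Spint1 (0.955), Atox1 (0.953) and, just after it, Stxbp3.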

How the data were processed

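Per the labels and the study's methods, the authors made 10x Genomics 3′ v3.1 libraries and deposited UMI count matrices, unnormalised, from Cell Ranger with the pre-built mm10 reference. Per the labels the version was 6.0.0, and the file headers give 3.1.0 for E15.5 and 6.0.0 for the others. The desmosome genes, gene lists, splits and the Ly6d comparison at E15.5 were chosen with earlier results of these data known; the Ly6d split at P0 was added after its cell numbers were seen.

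From the deposited counts, UMIs were summed over the cells of a group and divided by the group's total (CPM). Levels have exact Poisson, ratios exact conditional binomial and shares Clopper-Pearson 95% intervals. Groups at 0 were set to 3 counts. Cells were thinned to 5000 UMIs for shares of cells. UMIs summed by library and tissue were tested with edgeR 4.0.16 (R 4.3.3; TMM, mean of at least 10 CPM, adjusted p under 0.05; DESeq2 1.42.0 as an alternative), a comparison added after the data were seen. Doublets were kept. Scrublet (scanpy 1.11.5), run as an alternative, called 3, 0, 8 and 5 of the kept cells. The ratio code and the edgeR fit were tested on simulated data. All 10 members are named. Of the further gene lists only some genes are named in a comparison, and these are not always the ones with the largest ratios. Python 3.11.15, numpy 2.4.6 and scipy 1.17.1 were used. Protein sequences were not used here.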

Additional observations from a re-analysis of the deposited data

Results flagged for a closer look

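For 2 members the ratio of Ly6d cells to other epithelial cells lay on opposite sides of 1 at E15.5 and P0, with neither interval including 1. Perp (2.78 and 0.884), Jup (1.64 and 0.973) and Pkp2 (0.799 and 1.65) also lay on opposite sides. Their intervals included 1 at P0 for Perp and Jup and at E15.5 for Pkp2. Dsg2 had a ratio of 0.414 (0.348 to 0.489) at E15.5 and 1.26 (1.01 to 1.56) at P0. Dsp had a ratio of 2.42 (2.29 to 2.56) at E15.5 and 0.824 (0.683 to 0.993) at P0. Without the Ly6d cell with most Dsg2 UMIs, the P0 ratio of Dsg2 was 1.23 (0.988 to 1.53). Without the cell of the rest with most Dsp UMIs, the P0 ratio of Dsp was 0.848 (0.702 to 1.02). Both P0 intervals then included 1. The difference between the stages was not tested, since each stage is 1 library. The suprabasal skin list summed to 8722 CPM in the E15.5 Ly6d cells and to 276 CPM in the P0 Ly6d cells, and its part in the result was not tested. At P0 the basal list reached 3 UMIs in 23 of the 109 cells with little Ly6d and in 3 of the 121 Ly6d cells. Its part was not tested either.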

How the results depend on the processing

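Members called higher or lower were recounted under each alternative. Outside the tissue test, no share over all genes is given beside these recounts. For E14.5 over E13.5, limiting E13.5 to bud-marker cells gave 3 higher and 0 lower in place of 1 and 3, and turned Dsg3 and Dsc2 to log2 ratios of 1.00 and 1.70. Dsc2 was too low to be counted there, with 10 UMIs against 3. For E15.5 over E14.5, 4 in place of 2 were higher with up to 10% mitochondrial UMIs, with the mean of per-cell CPM and with thinned cells. For the E15.5 Ly6d split, 0 in place of 1 were lower with thinned cells, with a cut of 1 Ly6d UMI before or after thinning, without Krt1 or Krt10 cells, and among cells led by Krt8 and Krt18, where 3 in place of 6 were higher. For P0 Acta2 cells 2 in place of 1 were higher with thinned cells. For the P0 Ly6d split 1 in place of 0 was higher with the mean of per-cell CPM, without the filter on low levels, and with a cut of 10 UMIs. The cause of these changes was not tested. The other 143 recounts stayed within 1.5 times, and 494 of 496 alternative values of the 62 called ratios kept their sign. Of 918 alternative values of single members 104 lay outside the counting interval of the reported ratio, 32 of them with thinned cells. Pkp1 at E13.5 went from log2 6.07 to 2.46 over mesenchyme with thinned cells. Thinning left it 12 epithelial and 0 mesenchymal UMIs, so 2.46 is the value with the 0 set to 3 counts. Dsg3 at E15.5 went from 4.41 to 5.68 with the mean of per-cell CPM and to 7.82 without doublets. The tissue test over 4 libraries was added after the data were seen. Its 9 members higher stayed 9 without the replicate block, where 461 of all genes in place of 820 were higher and 667 in place of 1066 lower, and became 10 with DESeq2 and the block. Leaving out 1 library at a time gave 7 to 9 members higher, with 310 to 1276 genes higher and 467 to 1188 lower. RLE size factors, both other filters, tissue sums 4-fold apart and removal of doublets gave 9. The stages and the subsets of a stage are 1 library each, so no block or left-out replicate applies to them.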
